A study of Mus musculus with 8 samples.

Results

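Genes that haematopoietic stem cells (HSCs) share with blood vessel endothelium were followed in bone marrow HSCs of wild type and Nupr1-/- mice. A list named 9 such genes: Tie1, Tek, Egfl7, Esam, Eng, Pecam1, Emcn, Robo4 and Cdh5. Members were the entries of the deposited table that carry 1 of these symbols, and 8 of the 9 were found among 11854 named entries. Cdh5 (VE-cadherin) had no entry and was not analysed here. The study sorted HSCs from the marrow of 4 wild type and 4 Nupr1-/- mice, all on a C57BL/6 background and otherwise untreated as far as the labels say, and sequenced polyadenylated RNA with 1 library per mouse. The age and sex of the mice, the surface markers used for the sort and the design of the Nupr1 allele are not given in the sources used here. In its title the series speaks of quiescent stem cells and the p53 pathway, and the 1 comparison of the design asks how the transcriptome differs between the genotypes.

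HSCs arise in the embryo from endothelium lining the large arteries, and adult HSCs keep part of the surface repertoire of that lineage. Tie1 and Tek (also called TIE2) are the receptor tyrosine kinases of the angiopoietin system, in which angiopoietin 1 activates TEK and TIE1 modulates the response. This system is known for its part in vessel stability and in the contact of HSCs with their niche. Endoglin is a co-receptor for BMP and TGF-beta ligands, ESAM, PECAM1 and VE-cadherin are adhesion proteins of endothelial junctions, endomucin is a surface sialomucin, ROBO4 is an endothelial roundabout receptor, and EGFL7 is a secreted protein that acts on NOTCH signalling and vessel growth. Several of them (ESAM, endoglin, endomucin, TEK) are used as markers of HSCs.

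The recovered whole reads numbered 2296101 to 4769401 per library and did not differ between the groups by more than the spread between mice (exact permutation p = 0.171, two-sided, 70 assignments, smallest possible p = 0.0286). Nupr1 itself was 134 to 318 normalised reads in wild type and 119 to 201 in the libraries labelled knockout, so the groups overlapped (log2 difference -0.50 ± 0.34, SE, limma adjusted p = 0.433), and the groups are named below as labelled. Wild type library 2 stood apart, with correlations of 0.716 to 0.744 over tested genes with the other wild type libraries, against 0.808 to 0.825 among those. Summed B and T cell markers reached 2268 and 7885 normalised reads in libraries 3 and 4 of the wild type, against 363 to 601 in the other 6. Transcript GC content went along with the group. The Spearman correlation of GC with how far a gene in 1 library lay from its mean over libraries, across 10889 genes that are not independent replicates, was -0.303 to -0.138 in wild type and 0.1501 to 0.301 in the libraries labelled knockout.

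Tie1 and Eng rose in the libraries labelled knockout, 2.69-fold and 1.90-fold, and the other 6 members did not pass the test. Robo4 came nearest, with a 2.45-fold higher level that missed the threshold, followed by Esam at 1.48-fold. Tek was 1.07-fold higher and Egfl7, Emcn and Pecam1 were 1.12-fold to 1.21-fold lower, all far from the threshold. In counts, 2 of 8 members were called, both higher and 0 lower, where 418 of all 10989 tested genes were called (3.8%), 185 of them higher (1.68%) and 233 lower (2.12%). The test was limma on log2(value + 1) with Benjamini-Hochberg adjusted p under 0.05, where a value is the deposited normalised read count of a gene. At an unadjusted p under 0.05, 4 members were higher and 0 lower, against 9.91% of all tested genes that were higher. Of the 8 members 5 had a log2 difference above 0, as did 51.3% of all tested genes, and their median was 0.33, beside 0.03 for all tested genes. Members called by other fits were 2 with edgeR (3.1% of all genes called), 2 with limma-voom (3.02%), 3 with DESeq2 (8.76%), 3 with a pseudocount of 10 (4.8%), and 0 with the GC and length trend removed (0.257%). All 8 passed the filter on low values. In bulk samples, fewer cells that express a gene and less of its RNA per cell cannot be told apart, and the labels do not say more of the mice than that each gave 1 library.

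**Figure D1:**
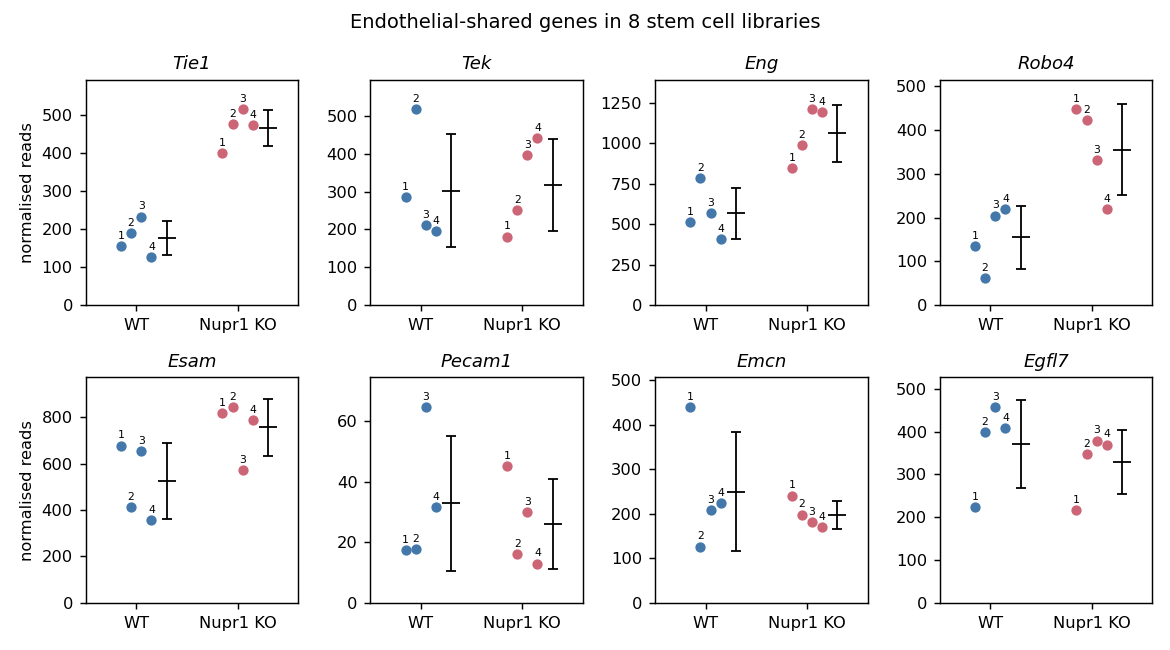
Normalised reads of each gene (vertical axes, linear from 0) in the 4 wild type (WT, blue) and 4 libraries labelled knockout (Nupr1 KO, red). Points are libraries with their replicate number, and bars show mean and SD. For Tie1 and Eng every red point lies above every blue one, and in the other 6 panels the groups overlap.

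Tie1, the orphan receptor of the pair, had the smallest p among the members. It was 156, 189, 232 and 127 normalised reads in wild type libraries 1 to 4. It was 399.6, 475, 514 and 472 in libraries 1 to 4 labelled knockout. Each of the latter lay above all 4 wild type values, with no overlap, as in 5.78% of all tested genes. The mean went from 176 ± 45.3 to 465 ± 47.8 (SD, n = 4), and the log2 difference was 1.43 ± 0.27 (SE; limma, adjusted p = 0.0125). These values rested on 168 to 582 recovered reads per library. The call held in 7 of 8 leave-one-out fits, and without library 2 labelled knockout the adjusted p was 0.0506 at a log2 difference of 1.41. The gene (ENSMUSG00000033191.14) lies in mm10 at 118471191 to 118490061 of chromosome 4, minus strand. It shares no exonic base with another annotated gene. Its longest transcript has a GC content of 57.6%. After removal of a smooth trend with transcript GC content and length in every library, the log2 difference was 0.93 (adjusted p = 0.155).

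Tek, the angiopoietin receptor itself, had nearly equal means with a wide spread. It was 285, 517, 210 and 197 normalised reads in wild type libraries 1 to 4. It was 181, 252, 397 and 442 in libraries 1 to 4 labelled knockout. The highest value of all was that of wild type library 2 and the lowest that of library 1 labelled knockout. The log2 difference was 0.10, with a 95% interval from -0.63 to 0.83 (limma adjusted p = 0.908), so a change of up to 1.77-fold in the level of Tek lies within it. Its sign turned in 4 of 8 leave-one-out fits. The SD was 49.1% of the mean in wild type and 38.4% in the libraries labelled knockout, while counting alone gives 5.34% and 5.65%. The gene (ENSMUSG00000006386.15) spans 94739289 to 94874976 on the plus strand of chromosome 4 and shares no exon with another gene.

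Whether Tie1 changed by more than Tek was tested on the ratio of their normalised reads in each library, a test chosen after the values were seen. The ratio of Tie1 to Tek was 0.548, 0.366, 1.10 and 0.646 in libraries 1 to 4 from wild type mice, against 2.21, 1.89, 1.30 and 1.07 in libraries 1 to 4 labelled knockout. Of the latter, 3 lay above every wild type library. The mean log2 ratio was -0.70 ± 0.66 in wild type and 0.63 ± 0.48 in the libraries labelled knockout (SD, n = 4). That difference of 1.33 did not pass (exact permutation p = 0.0571, two-sided; adjusted over the 2 ratios tested, 0.114). With 70 assignments the smallest possible p was 0.0286, and the other ratio had a permutation p of 0.257. Beside it the adjusted p could not fall under 0.05. The miss therefore does not say whether Tie1 changed by more than Tek.

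Angpt1, the ligand that activates TEK, was measured in the same sorted cells and fell. It was 1347, 1169, 1885 and 1822 normalised reads in wild type libraries 1 to 4. It was 636, 663, 554 and 888 in libraries 1 to 4 labelled knockout, all below every wild type value. The mean went from 1556 ± 352 to 685 ± 143 (SD, n = 4), a 2.26-fold fall (log2 -1.17 ± 0.21, SE, limma adjusted p = 0.00852). It passed in 8 of 8 leave-one-out fits. Of its exonic bases, 737 also belong to the exons of another gene, Gm17473, and reads there cannot be assigned. The transcript is low in GC (39.3%), and with the GC and length trend removed the log2 difference was -0.56 (adjusted p = 0.229).

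Of the other genes around the Tie receptors, a list of ligands, adaptors and kinases held 18 besides Tie1 and Tek, of which 12 were tested. Angpt1 and Crk fell, 0 rose and 10 did not pass (3.8% of all genes called), with a median log2 difference of -0.30. Crk, an SH2 and SH3 adaptor, was 349 to 681 normalised reads in wild type and 142 to 239 in the libraries labelled knockout (log2 -1.25 ± 0.29, SE, limma adjusted p = 0.0270). Its call was lost without wild type library 1 (adjusted p = 0.0772) and without library 1 (0.0606), 2 (0.0683) or 3 (0.0782) labelled knockout. Its log2 difference with the GC trend removed was -0.94 (adjusted p = 0.188). Angpt2, which antagonises angiopoietin 1 in many settings, and Angpt4 had no entry in the table. Ptprb, the phosphatase that dephosphorylates TEK in endothelium, had an entry under the filter on low values, with 0 in 3 libraries.

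**Figure D2:**
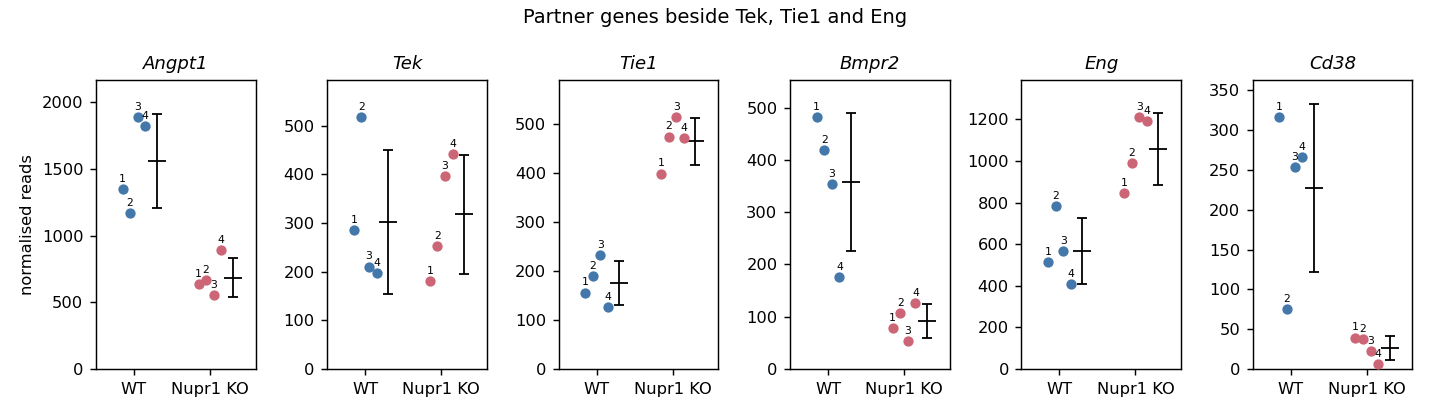
Normalised reads (vertical axes, linear from 0) by library for Angpt1, Tek, Tie1, Bmpr2, Eng and Cd38, with wild type in blue, libraries labelled knockout in red, replicate numbers beside the points and bars for mean and SD. Angpt1, Bmpr2 and Cd38 lie lower in every red library than in any blue one, Tie1 and Eng lie higher, and Tek overlaps.

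Eng encodes endoglin, and it was the other member that rose. It was 512, 782, 566 and 409.7 normalised reads in wild type libraries 1 to 4. It was 847, 989, 1209.5 and 1193 in libraries 1 to 4 labelled knockout. The groups did not overlap, although wild type library 2 came close to library 1 labelled knockout. The mean went from 568 ± 157 to 1059.5 ± 173 (SD, n = 4), and the log2 difference was 0.92 ± 0.22 (SE; limma, adjusted p = 0.0305). The call was not stable to the loss of a library. Without wild type library 2 it stayed (adjusted p = 0.00363), and it was lost without wild type library 1 (0.0697), 3 (0.0668) or 4 (0.0845) and without library 1 (0.0602), 2 (0.0763), 3 (0.0920) or 4 (0.0782) labelled knockout, at log2 differences of 0.78 to 1.03. With the GC and length trend removed the log2 difference was 0.43 (adjusted p = 0.458). The GC content of its longest transcript is 57.4%. The gene (ENSMUSG00000026814.16) lies at 32646595 to 32682669 of chromosome 2, plus strand, and 61 of its 4048 exonic bases overlap Fpgs on the other strand, which the library kit does not tell apart. Fpgs itself was 178 ± 101 in wild type and 206 ± 50.6 in the libraries labelled knockout (adjusted p = 0.666).

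Among the receptors and SMAD genes that endoglin works with, Bmpr2 fell. This type II BMP receptor was 481, 419, 354 and 176 normalised reads in libraries 1 to 4 from wild type mice, against 78.7, 107.2, 53.0 and 126 in libraries 1 to 4 labelled knockout. The 3.83-fold fall (log2 -1.94 ± 0.38, SE, limma adjusted p = 0.0145) was lost without wild type library 1 (adjusted p = 0.0544) or library 1 labelled knockout (0.0542), and with the GC trend removed the log2 difference was -1.49 (adjusted p = 0.101). Of 21 tested genes of this list besides Eng, Bmpr2 fell (2.12% of all genes called lower), 0 rose and 20 did not pass. The median log2 difference of the 21 was -0.10. At an unadjusted limma p under 0.05, 3 of the list's 22 tested genes were higher (Eng included), against 9.91% of all tested genes. Another 4 were lower, and the share of all tested genes lower at that p is not given here. DESeq2 and edgeR called 1 gene higher in this list, and 2 and 1 lower. Acvrl1, the type I receptor that endoglin is best known to serve in endothelium, had no entry.

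The adhesion members did not pass. Esam, a junctional immunoglobulin protein and a marker of long-term HSCs, was 677, 411, 654 and 355 normalised reads in wild type libraries 1 to 4. It was 817, 844, 573 and 787 in libraries 1 to 4 labelled knockout. Of these, 3 lay above every wild type value and library 3 lay among them. The log2 difference was 0.57 ± 0.24 (SE, limma adjusted p = 0.206), with a 95% interval of 0.05 to 1.08. With the GC trend removed it was 0.27 (adjusted p = 0.693). Esam (ENSMUSG00000001946.14) lies at 37528078 to 37538319 of chromosome 9, plus strand.

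Pecam1 (CD31), a homophilic adhesion receptor of endothelium, platelets and leukocytes, was the member with the fewest reads. It was 17.4, 17.7, 64.8 and 31.7 normalised reads in wild type libraries 1 to 4. It was 45.2, 16.2, 30.0 and 12.96 in libraries 1 to 4 labelled knockout. The groups overlapped across almost the whole range. The SD was 67.7% of the mean in wild type and 56.4% in the libraries labelled knockout, while counting alone, at 13 to 65 recovered reads per library, gives 16.3% and 20.9%. The 95% interval of the log2 difference ran from -1.98 to 1.43 (limma adjusted p = 0.884), which spans folds of 0.253 to 2.69. The gene (ENSMUSG00000020717.19) spans 106654217 to 106750628 on the minus strand of chromosome 11.

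Emcn encodes endomucin, which keeps leukocytes from adhering to resting endothelium and also marks HSCs. It was 440, 126, 208 and 224 normalised reads in libraries 1 to 4 from wild type mice, against 241, 198, 182 and 169 in libraries 1 to 4 labelled knockout. The highest and the lowest of the 8 values were both wild type (libraries 1 and 2). The SD was 53.6% of the mean in wild type and 15.7% in the libraries labelled knockout, and the difference in spread was not tested. The log2 difference was -0.20, with a 95% interval of -0.94 to 0.53 (limma adjusted p = 0.797). It was 0.12 without wild type library 1 and 0.32 with the GC trend removed, neither past the threshold. Emcn (ENSMUSG00000054690.17) spans 137341067 to 137432185 on the plus strand of chromosome 3, and its longest transcript has the lowest GC content of the 8 (40.7%).

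Of 17 tested junction partners besides the members, Cd38 fell (2.12% of all genes called lower), 0 rose and 16 did not pass. The median log2 difference of the 17 was -0.28. Cd38, an NAD-consuming surface enzyme that has been described as a ligand of PECAM1, was 316, 74.9, 253 and 266 normalised reads in libraries 1 to 4 from wild type mice, against 39.4, 37.4, 22.1 and 6.48 in libraries 1 to 4 labelled knockout. The 8.84-fold fall (log2 -3.14 ± 0.63, SE, limma adjusted p = 0.0145) was lost without wild type library 1 (0.0589) or 3 (0.0567), in limma-voom (0.0606), and with the GC trend removed (log2 -2.63, adjusted p = 0.0770). Ptpn6, the phosphatase SHP-1 that docks on the tail of PECAM1, was 780 ± 245 in wild type and 1336 ± 280 in the libraries labelled knockout (adjusted p = 0.0525). Of the catenin genes whose products bind VE-cadherin, Ctnnb1 was 1886 ± 326 and 1322 ± 165 with no overlap (adjusted p = 0.119), and Ctnna1 (0.631) and Ctnnd1 (0.740) did not pass either.

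Robo4, which stabilises the endothelial barrier and takes part in lodging HSCs in marrow niches, came close to the threshold. It was 134, 62.1, 204 and 219.9 normalised reads in wild type libraries 1 to 4. It was 448, 423, 331 and 219.4 in libraries 1 to 4 labelled knockout. The groups met only where wild type library 4 and library 4 labelled knockout had nearly the same value. The mean was 155 ± 72.4 in wild type and 355 ± 103 in the libraries labelled knockout (SD, n = 4), with a log2 difference of 1.29 ± 0.38 (SE, limma adjusted p = 0.0682) and a 95% interval of 0.49 to 2.10. DESeq2 (adjusted p = 0.0311) and a pseudocount of 10 (0.0472) put it past the threshold, and edgeR (0.0979) and limma-voom (0.0875) did not. Without wild type library 2 the log2 difference was 0.91 (adjusted p = 0.0781), and with the GC trend removed it was 0.93 (adjusted p = 0.304). Robo4 (ENSMUSG00000032125.20) lies at 37401897 to 37415115 of chromosome 9, plus strand, 112962 bases before Esam.

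Robo4 and Esam lie on the same stretch of chromosome 9, with 2 protein-coding genes between them. The ratio of Robo4 to Esam was 0.151 to 0.619 in wild type and 0.279 to 0.578 in the libraries labelled knockout. The range of the second group lay inside that of the first. The mean log2 ratio was -1.85 ± 0.88 and -1.12 ± 0.48 (SD, n = 4), a difference of 0.73 (exact permutation p = 0.257, two-sided; adjusted over the 2 ratios tested, 0.257). This ratio too was chosen after the values were seen.

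Egfl7, the secreted member, did not pass and pointed down slightly. It was 223, 398, 458 and 407 normalised reads in libraries 1 to 4 from wild type mice, against 217, 348, 379 and 369 in libraries 1 to 4 labelled knockout. Library 1 was the lowest of each group, which the labels do not tie together. The log2 difference was -0.16, with a 95% interval of -0.76 to 0.44 (limma adjusted p = 0.804). Egfl7 has a GC content of 57.1%, as high as that of Tie1 and Eng. With the GC trend removed its log2 difference was -0.62 (adjusted p = 0.379). The gene (ENSMUSG00000026921.18) spans 26580014 to 26593120 on the plus strand of chromosome 2, and 401 of its 3581 exonic bases are shared with Agpat2, Gm20532 and the microRNA genes Mir126a and Mir126b. A value per gene from polyadenylated RNA does not measure these microRNAs.

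Around ROBO4 and EGFL7, a list of roundabout and NOTCH pathway genes held 15 tested genes besides the members. Git1 rose (1.68% of all genes called higher), 0 fell and 14 did not pass in limma (median log2 0.04). Counts by other fits cover all 17 tested genes of the list, with Robo4 and Egfl7 among them. DESeq2 called 2 higher and 1 lower, and edgeR and limma-voom called 1 higher and 0 lower. With the GC and length trend removed, limma called 0 higher and 1 lower (0.257% of all genes called). Git1, a regulator of ARF6 that has been described as part of the signalling below ROBO4, was 137, 281, 184 and 232 normalised reads in libraries 1 to 4 from wild type mice, against 468, 517, 549.6 and 359 in libraries 1 to 4 labelled knockout (log2 1.21 ± 0.28, SE, limma adjusted p = 0.0261). Its call was lost without wild type library 1 (0.0697) or 3 (0.0663), and without library 1 (0.0757), 2 (0.0844) or 3 (0.0803) labelled knockout. With the GC trend removed its log2 difference was 0.68 (adjusted p = 0.316). The SLIT genes and Unc5b, an endothelial partner of ROBO4, had no entry, and Notch1 (adjusted p = 0.932) and Notch2 (adjusted p = 0.833) did not pass.

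Transcription factors that endothelium and HSCs share were measured beside the members. Of 21 tested, 0 rose, 0 fell and 21 did not pass in limma, and the median log2 difference was -0.23. An unadjusted p under 0.05 was found for 6 of them, 1 higher (9.91% of all tested genes) and 5 lower. No share of all genes that were lower at that p is given here. Of the 21, edgeR and limma-voom called 0, and DESeq2 called 2, both lower. The 2 of smallest p were Ldb1, a scaffold of the TAL1 and GATA2 complex, with 199 ± 81.7 in wild type and 360 ± 12.96 in the libraries labelled knockout (adjusted p = 0.0899), and Mecom, a zinc finger factor of HSC maintenance, with 709 ± 226 and 402 ± 101 (adjusted p = 0.105). The ETS factors Erg and Fli1, which act on many endothelial promoters, were 331 and 356 on average in wild type and 207 and 377 in the libraries labelled knockout (adjusted p = 0.229 and 0.821).

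**Figure D3:**
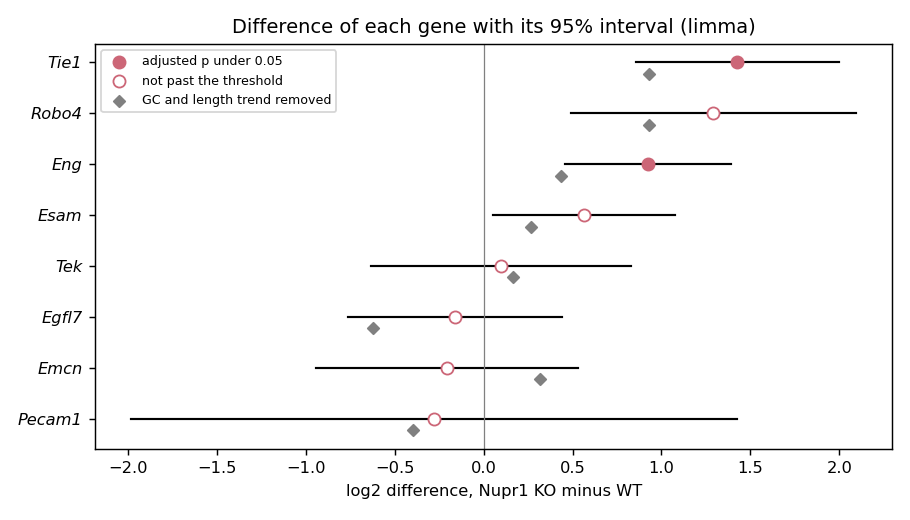
Log2 difference (horizontal axis, libraries labelled knockout minus wild type) of each gene with its 95% interval from limma. Filled circles passed at adjusted p under 0.05 (Tie1 1.43, Eng 0.92) and open circles did not. Grey diamonds give the difference after the GC and length trend was removed. The diamond lies nearer to 0 for Tie1, Robo4, Eng and Esam, farther from 0 for Egfl7, Tek and Pecam1, and on the other side for Emcn.

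Promoter sequence is shown for the pair that rose and for Robo4, the next by p, so that a reader can compare them. The letters come from RefSeq (GRCm38.p6, the mm10 assembly), where 6 members had a promoter entry (Tie1, Tek, Egfl7, Eng, Emcn and Robo4). They run 5′ to 3′ on the strand of the gene, and stop before the first annotated start of the gene in RefSeq and GENCODE M21. Capitals mark the ETS core GGAA on either strand (TTCC on the printed one). The Eng stretch is chr2:32646345-32646594 (plus strand), the Tie1 stretch chr4:118490062-118490099 (minus strand) and the Robo4 stretch chr9:37401722-37401896 (plus strand).
Eng: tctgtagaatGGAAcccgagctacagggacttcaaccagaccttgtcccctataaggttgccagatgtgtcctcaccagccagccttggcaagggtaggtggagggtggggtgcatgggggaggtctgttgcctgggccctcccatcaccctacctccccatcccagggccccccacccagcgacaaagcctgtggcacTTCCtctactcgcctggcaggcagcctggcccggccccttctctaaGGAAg
Tie1: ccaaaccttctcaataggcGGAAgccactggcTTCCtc
Robo4: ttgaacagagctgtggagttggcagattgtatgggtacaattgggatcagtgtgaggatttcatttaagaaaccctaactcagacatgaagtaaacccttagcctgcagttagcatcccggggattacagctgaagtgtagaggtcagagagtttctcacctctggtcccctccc

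In these printed stretches GGAA occurred 3 times for Eng, 2 times for Tie1 and 0 times for Robo4. Over the 250 bases before the RefSeq start, which for Tie1 and Robo4 run partly into exons annotated by GENCODE, it occurred 3, 7 and 3 times. Of 32817 promoters of the same length 93.4% held at least 1 such match, 54.6% at least 3 and 3.82% at least 7. Tek had 2 matches and Emcn 4 in that window. Egfl7 had 5, 3 and 1 in the windows of its separate RefSeq starts, which lie inside the gene as GENCODE annotates it. None of these genes passed the test. The GATA motif AGATAA and the RUNX motif TGTGGT (both on either strand) were found 0 times in the windows of Tie1, Tek, Egfl7, Eng, Emcn and Robo4, against 9.99% and 14.0% of all promoters. The E-box CANNTG was found 1 time for Tie1, Eng and Emcn and 2 times for Tek and Robo4, and in 66.2% of all promoters. In the windows of Egfl7 it was found 2, 0 and 1 times. A match is a string of letters and no sign of binding.

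Levels between genes were compared as normalised reads per kilobase of annotated exon. In wild type the order was Esam (183 ± 57.6), Eng (140 ± 38.8), Egfl7 (103.7 ± 28.6), Tek (64.1 ± 31.5), Emcn (46.2 ± 24.8), Tie1 (35.8 ± 9.21), Robo4 (29.3 ± 13.7) and Pecam1 (5.29 ± 3.58; SD, n = 4). The ranges of neighbours in this order overlapped, except for Robo4 and Pecam1. In the libraries labelled knockout Esam (263 ± 43.1) and Eng (262 ± 42.9) led, and Tie1 came next at 94.6 ± 9.72, with every library below the lowest of Eng. Tie1 and Egfl7 overlapped there, and Tie1 was the higher of them in 1 of 4 libraries. Apart from Eng over Tie1 and Emcn over Pecam1, neighbours in this order overlapped too. Egfl7 (91.7 ± 21.01), Tek (67.4 ± 25.9), Robo4 (67.0 ± 19.5), Emcn (36.5 ± 5.73) and Pecam1 (4.19 ± 2.37) followed. Over all 8 libraries the level per kilobase of Esam lay above that of 92.7% of 10889 tested genes, that of Tie1 above 72.4% and that of Pecam1 above 7.15%.

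The libraries were checked against defining markers of other cells, on summed normalised reads. Of 22 endothelial markers that HSCs do not share, 10 had an entry. Their sum was 656, 361, 544 and 540 in wild type libraries 1 to 4. It was 589, 342, 330 and 360 in libraries 1 to 4 labelled knockout, so the ranges overlapped only through library 1 of the latter. The median log2 difference of the 9 tested genes was -0.48, with 3 above 0. Kdr, the main VEGF receptor of endothelium, was 59.4 ± 59.1 in wild type and 39.2 ± 31.7 in the libraries labelled knockout, and Flt1, Flt4, Plvap and Stab2 had no entry. Ecscr (147 ± 20.2 and 112 ± 41.9) and Aqp1 (35.7 ± 24.6 and 166 ± 120) had the highest means of the list, the latter with no overlap between the groups. Clec14a was 105 ± 78.4 and 7.14 ± 8.30, and 0 of the 9 tested genes of the list passed in limma. At an unadjusted limma p under 0.05, 1 was higher (9.91% of all tested genes) and 2 were lower, for which no share is given. edgeR and limma-voom called 0 and DESeq2 called 1 higher and 1 lower.

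Of 12 tested markers of megakaryocytes and platelets, 4 rose (1.68% of all genes called higher), and their summed level was higher in the libraries labelled knockout. The sum of the 12 genes was 1423 to 1689 in wild type and 2443 to 3083 in the libraries labelled knockout, with no overlap. Itga2b, Gp9, Vwf and Pf4 rose, 0 fell and 8 did not pass, while DESeq2 called 5 higher and 1 lower. edgeR and limma-voom each called 3 higher and 0 lower. With the GC and length trend removed 0 of the 12 passed, with log2 differences of 1.25 for Itga2b (limma adjusted p = 0.112), 2.21 for Gp9 (0.0768), 0.38 for Vwf (0.484) and 2.19 for Pf4 (0.0922). Itga2b passed in 8 of 8 leave-one-out fits, Gp9 in 6 (lost without library 1, 0.0610, or 3, 0.0503, labelled knockout) and Pf4 in 1 (without wild type library 2, highest adjusted p 0.136). Itga2b, the integrin subunit CD41, rose 3.39-fold (limma adjusted p = 0.00852), and Vwf, the von Willebrand factor that endothelium makes too, 1.77-fold (adjusted p = 0.0360, lost without wild type library 3 or 4 and without library 1, 2 or 3 labelled knockout, highest 0.136). Platelets and their precursors also carry ESAM and PECAM1, of which neither passed. Esam was 1.48-fold higher in the libraries labelled knockout (limma unadjusted p = 0.032). Pecam1 rested on 13 to 65 recovered reads per library, and the interval of its fold ran from 0.253 to 2.69. Whether RNA of such cells took part in the values of Esam or Pecam1 was not tested. Of the stem cell markers 16 of 16 had an entry, among them Ly6a, the gene of the antigen Sca-1 (1263 ± 146 in wild type, 1015 ± 293 labelled knockout). Their sum was 10709 to 13519 in wild type and 8620 to 11134 in the libraries labelled knockout, with 2 of 15 tested genes lower (2.12% of all genes called lower) and 0 higher. At an unadjusted limma p under 0.05, 5 were lower and 0 higher. The share of all tested genes that were lower at that p is not given here. edgeR called 1 lower, limma-voom 2 and DESeq2 3, and 0 higher. The 2 called in limma were Ptprc (lost without library 2 labelled knockout, limma adjusted p = 0.0562) and Mllt3 (kept only without wild type library 2 when 1 library was left out, highest 0.129). Neither passed with the GC trend removed (adjusted p = 0.415 and 0.7003). The part of these markers and of GC content in the differences of Tie1 and Eng was not tested beyond the removal of the GC trend.

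**Figure D4:**
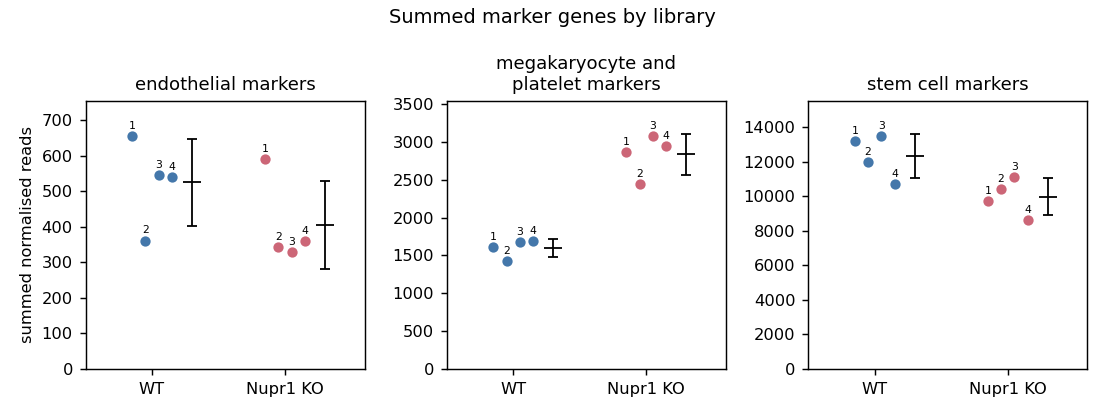
Summed normalised reads (vertical axes, linear from 0) of endothelial, megakaryocyte and platelet, and stem cell markers in wild type (WT, blue) and libraries labelled knockout (Nupr1 KO, red), with replicate numbers and bars for mean and SD. The megakaryocyte sum lies at 2443 to 3083 in every red library, above the 1423 to 1689 of the blue ones. The endothelial sums overlap only through red library 1.

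The ranges of summed markers of other blood cells overlapped between the groups, those of erythroid markers only through library 2 labelled knockout. Of 15 monocyte and neutrophil markers 3 had an entry, and their sum was 1612 to 3588 in wild type and 1444 to 2666 in the libraries labelled knockout, most of it Lyz2 (2134 ± 705 and 2077 ± 509). Of 12 erythroid markers 7 had an entry, led by Car2, which HSCs express too (3354 ± 1212 and 5147 ± 876). Their sum was 2814, 4877, 4862 and 2638 in wild type libraries 1 to 4. In libraries 1 to 4 labelled knockout it was 6269, 4289, 5867 and 5995. Of the 5 tested, 1 rose (1.68% of all genes called higher) and 0 fell (Klf1, limma adjusted p = 0.143 with the GC trend removed). At an unadjusted limma p under 0.05, 3 were higher (9.91% of all genes) and 0 lower, and the median log2 difference was 0.68. Of 15 B and T cell markers 5 had an entry, and their sum of 434 to 7885 in wild type and 363 to 601 in the libraries labelled knockout was set by Ighm in wild type libraries 3 and 4.

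**Figure D5:**
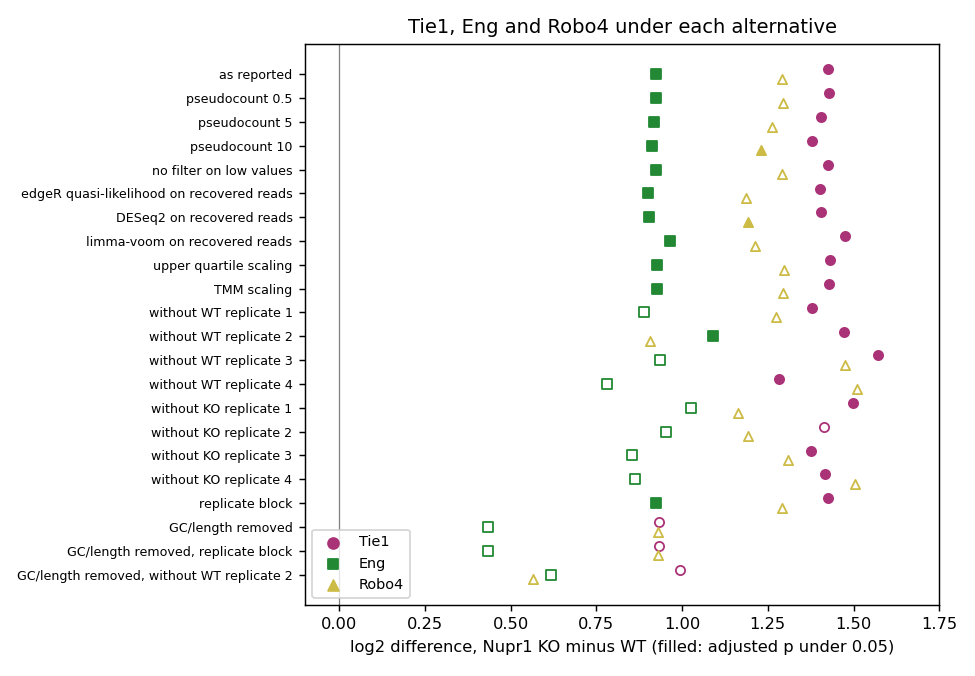
Log2 difference (horizontal axis) of Tie1 (circles), Eng (squares) and Robo4 (triangles) in the fit as reported and in 21 alternatives (rows). Filled symbols passed at adjusted p under 0.05. All symbols lie to the right of 0, those of Eng are open in 7 of 8 leave-one-out fits, and all 3 genes are open wherever the GC and length trend was removed.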

How the data were processed

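RNA of sorted HSCs from 8 mice was made into Nextera XT libraries per the labels' protocols, a kit that does not mark strand. Build mm10 and the programs HISAT2, featureCounts (Subread), bcl2fastq and DESeq2 are named per the submitters' processing notes, without versions. The deposited values are a normalised signal per gene: gene reads divided by 1 size factor per library, since all values (100%) were whole multiples of 1 step per library (tolerance 0.001). Dividing by the step gave whole reads. An unnamed entry was left out. A gene was tested if 4 or more libraries reached a value of 10 (10989 genes, 865 left out). The test was the two-sided one of limma 3.58.1 in R 4.3.3 on log2(value + 1), with trended and robust variances, and fold changes are on that scale. p-values measure the spread between 4 mice per group. edgeR 4.0.16, DESeq2 1.42.0 and limma-voom were run on the recovered reads. GC content and length came from the longest GENCODE M21 transcript (11716 of 11853 symbols matched), and their trend was removed per library with natural splines. Exon length is the union of annotated exons. The limma and edgeR fits were checked on simulated counts without a GC trend or a library that stood apart, so the check does not cover these.

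The members, lists and tests were chosen with earlier results of these data known. Named besides the members were Nupr1, called genes of the pathway lists (at most 4, or the 2 of smallest p), the 2 highest genes of each marker list, the 3 genes most like each called member, and neighbouring genes. A gene that this rule names is not reported here. Kdr, Clec14a, Erg, Fli1, Notch2, Ctnnb1, Ctnna1, Ctnnd1, Gp9, Pf4, Ptprc and Mllt3 fall outside this rule and were chosen after their values were seen.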

Additional observations from a re-analysis of the deposited data

How the results depend on the processing

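Tie1, Eng, Robo4 and Esam kept their direction in each of 21 alternatives. Tie1 passed in 17, Eng in 11, Robo4 in 2 and Esam in 0. Over all 21 alternatives log2 differences ran from 0.93 to 1.57 for Tie1, 0.43 to 1.09 for Eng and 0.57 to 1.51 for Robo4. The number of members called was 2, and 3 with DESeq2 or a pseudocount of 10. It was 0 with the GC and length trend removed, alone, with the replicate block or without wild type library 2 (limma; unadjusted p under 0.05 for 3, 3 and 2 members, of which 1, 1 and 0 were lower; edgeR and limma-voom without that removal called 2). Leaving out 1 library gave 0 to 2 members, 0 without library 2 labelled knockout (3 unadjusted). The count of all genes was 418 as reported, 775 with DESeq2, 49 to 881 with 1 library left out (49 without library 2 labelled knockout, 881 without wild type library 2), 28 with the GC trend removed, 25 with the replicate block as well, and 239 with the GC trend removed without wild type library 2. The cause of these shifts was not tested. The block by replicate number gave 277 genes and kept Tie1 and Eng. Deviations from the group mean correlated at -0.0566 to 0.0148 for same-numbered libraries, and at -0.0464 to 0.0732 for libraries of different number. Such deviations cancel within a group, so these values do not show whether a number marks a shared batch. Signs turned for members that were never called. With 1 library left out, Tek ran from -0.090 to 0.39, Egfl7 from -0.39 to 0.026, Emcn from -0.48 to 0.12 and Pecam1 from -0.59 to 0.11, and Emcn was 0.32 with the GC trend removed (0.32 with the block, 0.10 without wild type library 2). The group difference in recovered reads, -890042, was 9605 in summed deposited values (exact permutation p = 0.914). Pecam1 had no adjusted p in DESeq2. Pecam1 had the fewest reads of the members, 13 to 65 per library.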

Other observations

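The genes whose pattern was most like that of a called member were found by Pearson correlation of log2(value + 1) over the 8 libraries, which also differ in genotype and GC trend, so it is a description without a test. For Tie1 they were Ddx39 (0.983), Klf1 (0.973) and Tbc1d9b (0.973), and for Eng they were Brd8 (0.994), Mlec (0.969) and Ddx39 (0.968), out of 10981 genes. Klf1, the erythroid Kruppel-like factor, was 1.83 ± 1.43 normalised reads in wild type and 56.3 ± 26.7 in the libraries labelled knockout (SD, n = 4; limma adjusted p = 0.0341), a call kept only without wild type library 2 when 1 library was left out (highest adjusted p 0.117, without library 3 labelled knockout). Tie1 and Eng correlated with each other at 0.926 over the 8 libraries, and Tie1 and Tek at 0.204.

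The genes named here that lie beside a member did not pass the test. Ak1, 11536 bases from Eng, had a log2 difference of 0.03 (limma adjusted p = 0.979). Robo3, 553 bases beyond the end of Robo4 on the other strand, was 7.66, 0, 0 and 10.6 normalised reads in libraries 1 to 4 from wild type mice, against 39.4, 12.5, 99.0 and 73.1 in libraries 1 to 4 labelled knockout. The groups did not overlap, and the difference did not pass (adjusted p = 0.0864). The exons of Robo3 overlap no other annotated exon. Beside Pecam1, Milr1 was 39.8 ± 13.2 and 11.7 ± 7.20 (adjusted p = 0.263).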
